A study of Mus musculus with 6 samples.

Results

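The ATF4 branch of the integrated stress response was followed through 10 genes, taken by symbol from the 54525 genes of the deposited table, each of which matched exactly 1 row. They were Atf4 itself and 7 genes that the ATF4 protein is known to activate (Atf5, Ddit3, Trib3, Chac1, Asns, Eif4ebp1 and Vldlr). The others were Sesn2 and Ppp1r15a, listed here as genes that also respond to DNA damage. Total RNA was sequenced from 6 cultures of mouse T cells, with libraries that keep the strand and were depleted of ribosomal RNA. Naive CD4 T cells from spleens and lymph nodes of C57BL/6 mice were stimulated through CD3 and CD28 for 72 hours with TGFβ and IL-6, a mix that drives Th17 polarization. The WT group held 3 cultures of genotype iCD4-PRMT5fl/fl, whose Prmt5 alleles carry a segment flanked by loxP sites, and the KO group held 3 cultures of genotype iCD4-PRMT5delta/delta. The age of the mice, the Cre line behind the label and when the deletion was made are not given in the sources used here. PRMT5 is the enzyme that places most symmetric dimethyl marks on arginines, and the study as titled is concerned with its part in cholesterol synthesis and Th17 responses.

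The integrated stress response starts when a kinase of the eIF2 family (PERK, GCN2, PKR or HRI) phosphorylates the translation factor eIF2. General protein synthesis then slows, while the Atf4 mRNA is translated more, through short open reading frames ahead of its coding sequence. ATF4 pairs with other basic leucine zipper proteins and binds composite C/EBP-ATF sites in genes for amino acid supply, redox balance and feedback. In activated T cells, growth signalling through mTORC1 is also known to raise ATF4. The ATF4 protein was not measured here, so the Atf4 values are for its mRNA.

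The deposited counts summed to between 36011906 and 43141474 per library. Prmt5, the deleted gene, fell from 121 ± 14.0 counts-per-million (CPM, mean ± SD, n = 3) in WT to 49.7 ± 5.11 CPM in KO. Its log2 change was -1.29 ± 0.11 (SE), with an edgeR adjusted p of 0.00012. Which part of the gene was deleted is not given, so the remaining reads cannot be assigned to intact or deleted alleles. Markers of T cells were abundant in both groups, with the 8 listed genes summing to 2598 to 2805 CPM in WT and 2850 to 2941 CPM in KO. The 6 genes of the Th17 identity list summed to 389 to 551 CPM in WT and 172 to 222 CPM in KO, where 3 fell and 2 rose. Traces of other cells differed between genotypes. The 5 B cell markers summed to 3.61 to 20.3 CPM in WT and 38.1 to 104 CPM in KO, with 4 of 5 tested called higher. The 7 myeloid and dendritic markers summed to 3.93 to 8.44 CPM and 13.3 to 39.3 CPM, with 4 of 6 tested called higher, and the 6 granulocyte and mast cell markers to 0 to 0.05 CPM and 2.97 to 20.4 CPM. The 2 CD8 T cell markers summed to 5.58 to 7.88 CPM in WT and 14.7 to 17.2 CPM in KO, and both rose. The summed level of the 5 markers of NK and innate lymphoid cells went the other way, from 53.3 to 71.4 CPM in WT to 24.9 to 29.3 CPM in KO. Of 3 tested, Klrd1, which made up most of the sum (mean 53.5 CPM in WT and 22.2 CPM in KO), and Klre1 (11.4 and 2.46 CPM) were called lower. Tyrobp (0.07 and 2.13 CPM) was called higher. The untested Ncr1 (0.05 and 0.30 CPM) and Klrb1c (0.06 and 0.17 CPM) were also higher on average in KO. Of the erythroid markers, Hbb-bs was at 0 in both groups. The part of such cells in the results was not tested, and in bulk RNA a smaller share of a cell type and less RNA per cell cannot be told apart. Reads of 4 Y-linked genes were absent from the WT libraries and stood at a relative level of 0.97, 0.13 and 1 in KO replicates 1, 2 and 3, so sex was not balanced between genotypes. The column names of all 3 KO libraries also share the number 51, whose meaning is not given, and the replicates, called biological in the study's design, are not stated to come from separate mice. The p-values therefore measure the spread between these libraries, which may be in part technical.

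Most of the ATF4 branch was lower in KO. Of the 2 members listed as also responding to DNA damage, Sesn2 was higher and Ppp1r15a was lower. Of the 10 members, 7 fell and 1 rose, while 2 were not called at an edgeR adjusted p under 0.05. Among all 16006 tested genes 20.9% were called lower, 21.7% higher and 42.5% in either direction. The median log2 change was -0.57 over the 10 members and -0.70 over the 7 ATF4 targets, of which 5 fell, against -0.00 over all tested genes. Vldlr and Trib3 had the largest changes, and Sesn2 was the single member that rose. The 3 KO libraries lay beyond the 3 WT libraries for 8 of the 10 members, against 55.6% of all tested genes.

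The counts depended on the scaling. When libraries were scaled by the spike-in RNAs, the median change of all genes moved to 0.14 on the log2 scale. The called genes then numbered 4448 (3085 higher, 1363 lower) in place of 6809 (3466 higher, 3343 lower), and 4 members fell in place of 7. Relative to the median of all genes the change of Atf4, as an example, was -0.32 with the usual scaling and -0.31 with the spike-in scaling. When KO replicate 2, which had few Y-linked reads, stood alone for its genotype (called the single KO library hereafter), 5 members fell and 1 rose. The spread in that fit comes from the WT libraries alone, the lone KO library is assumed to vary like them, and fewer calls can follow from having 1 sample. The log2 changes of Atf4 and Ppp1r15a, whose calls ended there, were -0.37 and -0.56, against -0.32 and -0.53 with all libraries. Adding the Y-linked level as a covariate gave the same counts. The share of spike-in RNA was 0.163% to 0.216% in WT libraries and 0.161% to 0.201% in KO libraries.

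**Figure D1:**
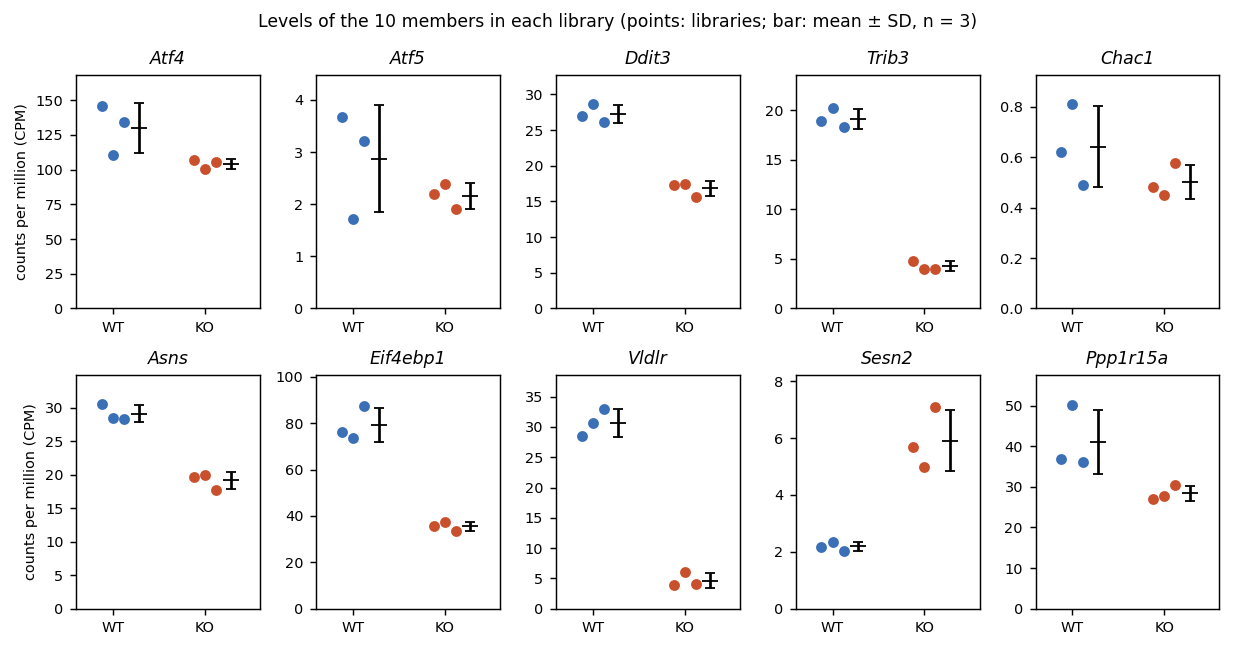
Level of each of the 10 genes in counts-per-million (CPM) in every library, with 3 WT points in blue, 3 KO points in orange, and the mean ± SD beside them. The groups part for all but Atf5 and Chac1, and Sesn2 alone stands higher in KO (4.98 to 7.09 CPM against 2.04 to 2.36 CPM).

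Atf4 (ENSMUSG00000042406.8, GRCm38 chromosome 15, 80255184 to 80257541, plus strand) was the most abundant member. Its level was 146, 110 and 134 CPM in WT replicates 1, 2 and 3, and 107, 100 and 105 CPM in KO replicates 1, 2 and 3. The KO libraries lay close together, and WT replicate 2 came within a few CPM of the highest of them. On average KO held 80.1% of the WT level (log2 change -0.32 ± 0.10, 95% interval -0.55 to -0.09, edgeR adjusted p = 0.0351). This was a weak call, which ended in 10 of the 16 alternative settings, with log2 changes from -0.42 to -0.18. It ended without WT replicate 1 (-0.23, edgeR adjusted p = 0.091), without WT replicate 3 (-0.30, 0.104) and without any one KO library (-0.33, 0.0957 for replicate 1, -0.29, 0.126 for replicate 2, and -0.32, 0.1 for replicate 3). Without WT replicate 2 the change was -0.42 and the edgeR adjusted p was 0.000972.

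Atf5 (ENSMUSG00000038539.15, chromosome 7, 44812256 to 44816658, minus strand) encodes a related leucine zipper factor that ATF4 and CHOP induce and that is itself controlled at translation. It stood at 3.68, 1.72 and 3.21 CPM in WT and at 2.19, 2.38 and 1.899 CPM in KO. The groups overlapped because WT replicate 2 was the lowest of all 6 libraries. The log2 change of -0.41 ± 0.28 was not called (95% interval -1.06 to 0.24, edgeR adjusted p = 0.275). Without WT replicate 1 it was -0.20 (edgeR adjusted p = 0.62). Without WT replicate 2, the only library whose removal gave a call, it was -0.68, with an edgeR adjusted p of 0.0172. That library also held the lowest Atf4 level of the WT group and stood apart from the other WT libraries on the second principal component of all tested genes (9.53% of the variance). Exons of Atf5 share 82 bases with Nup62 on the opposite strand, which had 1081 to 1836 counts per library against 70 to 131 for Atf5, and 82 bases with Il4i1, also on the opposite strand, which had 26 to 169 counts. The labels do not say whether counting used the strand.

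Trib3, Ddit3 and Chac1 act in feedback and cell death during stress. Trib3 (ENSMUSG00000032715.9, chromosome 2, 152337422 to 152344032, minus strand) encodes a pseudokinase that binds ATF4 and CHOP and restrains AKT. Its level was 18.9, 20.3 and 18.3 CPM in WT and 4.83, 3.97 and 3.98 CPM in KO. Every KO library held less than any WT library by a wide margin, and neither group spread much. KO retained 22.3% of the WT level on average (log2 -2.17 ± 0.12, 95% interval -2.44 to -1.89, edgeR adjusted p = 2.58e-05). The size of this change exceeded that of 95.7% of all tested genes.

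Ddit3 (ENSMUSG00000025408.15, chromosome 10, 127290774 to 127296288, plus strand) encodes CHOP, the factor that carries prolonged stress toward cell death. It stood at 27.0, 28.6 and 26.1 CPM in WT and at 17.3, 17.5 and 15.7 CPM in KO. The groups were well apart, and the fall was milder than that of Trib3, with a KO mean at 61.7% of the WT mean (log2 -0.70 ± 0.08, edgeR adjusted p = 0.000536). The call held in all 16 alternatives, with log2 changes from -0.73 to -0.55. Exons of Ddit3 share 68 bases with Mars on the opposite strand, a methionyl-tRNA synthetase gene with 5242 to 7826 counts per library. A second entry of the table with the symbol Ddit3.1 had 0 counts in every library.

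Chac1 (ENSMUSG00000027313.3, chromosome 2, 119351229 to 119354381, plus strand) encodes an enzyme that breaks down glutathione and is often used as a reporter of ATF4 activity. It was the scarcest member, with 22, 33 and 20 reads in WT and 20, 17 and 25 reads in KO. In CPM these were 0.62, 0.81 and 0.49 in WT and 0.48, 0.45 and 0.58 in KO, with overlapping groups. The log2 change of -0.35 ± 0.27 was not called (95% interval -0.99 to 0.29, edgeR adjusted p = 0.346). At this depth a fall as large as that of Ddit3 lies inside the interval, and one as large as that of Trib3 does not.

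Asns, Eif4ebp1 and Vldlr carry effector functions of the branch. Asns (ENSMUSG00000029752.12, chromosome 6, 7675169 to 7693254, minus strand) encodes the enzyme that makes asparagine. Its level was 30.6, 28.5 and 28.3 CPM in WT and 19.7, 20.0 and 17.8 CPM in KO, with no overlap. KO retained 65.8% of the WT level on average (log2 -0.60 ± 0.08, edgeR adjusted p = 0.000966). The change kept its direction and was no longer called under spike-in scaling (log2 -0.46, edgeR adjusted p = 0.104). It was called in the other 15 alternatives.

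Eif4ebp1 (ENSMUSG00000031490.6, chromosome 8, 27260329 to 27276674, plus strand) encodes 4E-BP1, a repressor of cap-dependent translation that mTORC1 inactivates by phosphorylation. It stood at 76.2, 73.7 and 87.3 CPM in WT and at 35.5, 37.5 and 33.6 CPM in KO. No KO library came near the WT range, and KO retained 45.0% of the WT level on average (log2 -1.15 ± 0.08, edgeR adjusted p = 6.92e-05). Its paralogs were not called. Eif4ebp2 changed by log2 0.17 ± 0.11 (edgeR adjusted p = 0.245), and Eif4ebp3, with a mean below 0.5 CPM in both groups, by 0.12 ± 0.31 (edgeR adjusted p = 0.783).

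Vldlr (ENSMUSG00000024924.14, chromosome 19, 27216484 to 27254231, plus strand) encodes a receptor for lipoproteins that ATF4 induces under stress. It fell furthest of the 10 genes. WT libraries held 28.4, 30.6 and 33.0 CPM and KO libraries 3.89, 6.07 and 4.01 CPM. KO replicate 2 was the highest KO library and still far under every WT library. KO retained 15.2% of the WT level on average (log2 -2.72 ± 0.18, 95% interval -3.14 to -2.30, edgeR adjusted p = 4.74e-05), and the lowest alternative fold, with the Y-linked covariate, was log2 -2.25. The related receptor gene Lrp8 also fell, with a log2 change of -1.20 ± 0.14 (edgeR adjusted p = 0.000482).

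**Figure D2:**
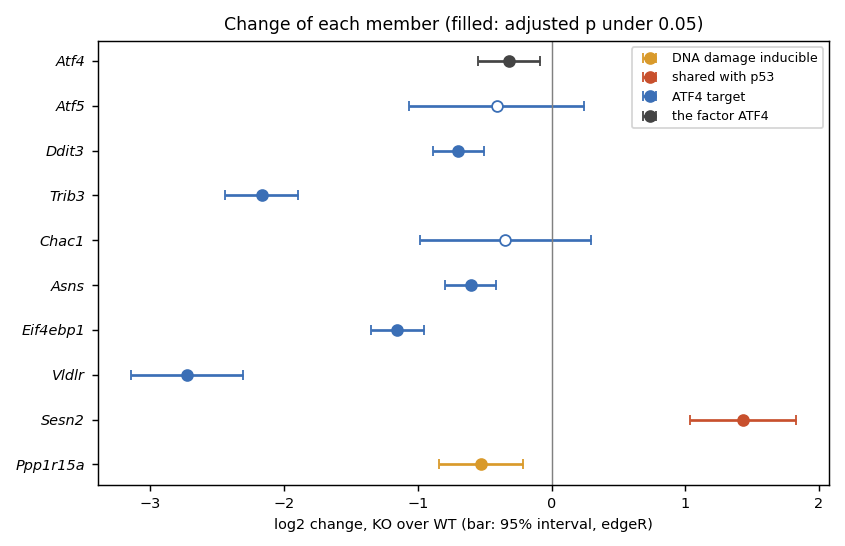
Log2 change of KO over WT for each gene on the horizontal axis with its 95% interval from the edgeR fit, coloured by role, filled where the edgeR adjusted p was under 0.05. Intervals of Atf5 and Chac1 cross 0, and that of Sesn2 (1.04 to 1.83) lies on the other side of 0 from the 7 genes that fell.

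Promoter windows show which of these genes carry the letters of an ATF4 site next to their start. RefSeq windows on GRCm38.p6, 250 bases before to 50 bases after each annotated start, were given for 9 of the 10 genes, all but Eif4ebp1. The core of the C/EBP-ATF composite site, TGATGNAA, was searched on both strands. It was present for 4 of the 9 genes (Asns, Chac1, Trib3 and the downstream of 2 starts of Vldlr), which is 4 of their 11 windows, against 4.51% of all 27025 genes and 3.97% of all 32851 windows. No match in a window says only that these letters are not there. Asns and Chac1 are printed from base -250 to -1 as targets with a match, and Sesn2 as the member that rose and has none. Capitals mark the match, and the sequences run 5′ to 3′ on the strand of the gene.
Asns, minus strand, chr6:7693210-7693459: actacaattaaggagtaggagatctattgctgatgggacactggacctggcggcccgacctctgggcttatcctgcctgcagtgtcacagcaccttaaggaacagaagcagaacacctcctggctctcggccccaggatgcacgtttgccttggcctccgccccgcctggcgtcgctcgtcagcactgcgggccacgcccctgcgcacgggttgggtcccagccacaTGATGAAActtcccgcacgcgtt
Chac1, plus strand, chr2:119350992-119351241: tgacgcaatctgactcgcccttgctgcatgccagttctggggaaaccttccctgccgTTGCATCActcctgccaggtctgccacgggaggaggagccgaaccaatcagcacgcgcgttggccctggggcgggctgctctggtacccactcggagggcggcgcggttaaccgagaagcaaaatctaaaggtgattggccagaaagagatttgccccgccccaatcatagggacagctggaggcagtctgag
Sesn2, minus strand, chr4:132510457-132510706: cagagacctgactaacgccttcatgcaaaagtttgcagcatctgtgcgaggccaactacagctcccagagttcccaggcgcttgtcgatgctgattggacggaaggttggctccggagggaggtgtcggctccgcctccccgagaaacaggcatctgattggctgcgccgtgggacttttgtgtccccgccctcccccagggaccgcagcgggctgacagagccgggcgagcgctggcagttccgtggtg
The match of Asns runs from base -23 to -16 on the strand of the gene, and that of Chac1 from -193 to -186 on the opposite strand. For the 2 genes that fell most, only the 30 bases around the match are printed. That of Trib3 lies from base 15 to 22 after the start, and that of Vldlr from -200 to -193 before the downstream start.
Trib3, minus strand, chr2:152344028-152344057: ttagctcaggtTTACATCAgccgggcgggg
Vldlr, plus strand, chr19:27216809-27216838: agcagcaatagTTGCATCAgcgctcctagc

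Across the genome, genes with and without these letters were called lower at similar rates, and the difference was not tested. Of 283 tested genes with a match 23.7% were called lower and 28.6% higher, and of 10050 tested genes without one 23.4% and 23.0%. Among the 4 members with a match, Trib3, Vldlr and Asns fell and Chac1 was not called. Among those with a window and no match, Ddit3, Atf4 and Ppp1r15a fell too, Atf5 was not called and Sesn2 rose. A p53 half-site was found in 1 of the 9 members, Atf5, with 2 matches, against 9.55% of all genes and 8.36% of all windows. The windows of Sesn2 and Ppp1r15a held none.

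Sesn2 and Ppp1r15a, the 2 members listed here as also responding to DNA damage, moved in opposite directions. Sesn2 (ENSMUSG00000028893.8, chromosome 4, 132492032 to 132510501, minus strand) encodes sestrin 2, a leucine sensor that restrains mTORC1, and is an established target of both ATF4 and p53. It stood at 2.18, 2.36 and 2.04 CPM in WT and at 5.67, 4.98 and 7.09 CPM in KO. All KO libraries were above all WT libraries, with KO replicate 3 the highest. The log2 change was 1.43 ± 0.17 (95% interval 1.04 to 1.83, edgeR adjusted p = 0.000529), a KO mean 2.70 times that of WT. The call held in all 16 alternatives, from log2 1.123 once the Y-linked level was a covariate to 1.57 with spike-in scaling.

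Ppp1r15a (ENSMUSG00000040435.12, chromosome 7, 45522916 to 45526268, minus strand) encodes GADD34, which brings a phosphatase to eIF2 and so ends the response. Its control by p53 is less settled than that of Sesn2. It stood at 37.0, 50.2 and 36.001 CPM in WT and at 27.1, 27.7 and 30.6 CPM in KO. The groups did not overlap, and WT replicate 2 stood far above the other libraries. The log2 change was -0.53 ± 0.14 (edgeR adjusted p = 0.0166), on the side of the ATF4 targets and not of Sesn2. The call ended without KO replicate 1 (-0.48, edgeR adjusted p = 0.0613) or KO replicate 2 (-0.50, 0.0556), with the single KO library (-0.56, 0.152), with the covariate for Y-linked reads (-0.58, 0.137) and with spike-in scaling (-0.39, 0.172). The size was smallest without WT replicate 2, at -0.36, still called.

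Ratios within a library do not depend on how libraries are scaled. Levels were divided by the gene length deposited by the authors, and the ratio of Sesn2 to Trib3 in CPM per kilobase was 0.0673, 0.0678 and 0.0650 in WT and 0.685, 0.731 and 1.04 in KO. The 2 mRNAs thus went from far apart to near equal. The ratio of Sesn2 to Ppp1r15a was 0.0438 ± 0.00515 in WT and 0.167 ± 0.0211 in KO, and that of Sesn2 to Asns 0.0437 ± 0.00375 and 0.181 ± 0.0451. Trib3 relative to Atf4 went the other way, from 0.149 ± 0.0294 to 0.0407 ± 0.00375. In these 4 ratios the groups did not overlap. The two-sided exact permutation test gave p = 0.1, the smallest that 3 against 3 allow (0.125 adjusted over the 5 ratios computed). For the ratios with Sesn2 on top this outcome was fixed in advance. Sesn2 was higher, and Trib3, Asns and Ppp1r15a were lower, in every KO library than in any WT library. Those ratios restate the changes of the single genes and add no test. Ppp1r15a relative to Atf4 was 0.234 ± 0.0808 in WT and 0.196 ± 0.0137 in KO, with overlap (exact permutation p = 0.8, adjusted 0.8).

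**Figure D3:**
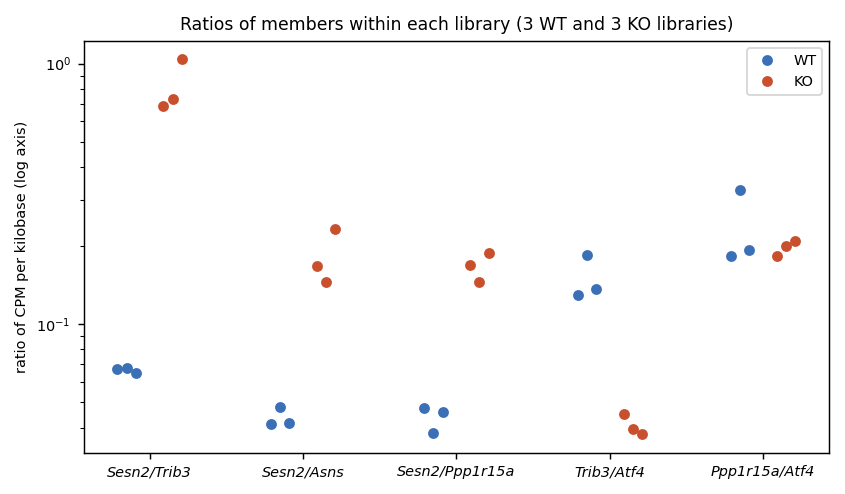
Ratio of CPM per kilobase between pairs of genes within each of the 6 libraries, on a log axis, with WT in blue and KO in orange. The 3 ratios with Sesn2 on top were higher in every KO library, Trib3 to Atf4 was lower in every KO library, and Ppp1r15a to Atf4 overlapped.

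Other p53 targets rose with Sesn2. Of 23 tested genes of the p53 list 19 rose and 0 fell by edgeR (1 fell without KO replicate 2), with a median log2 change of 1.05 against -0.00 over all tested genes. Among all tested genes 21.7% were called higher. The genes with the lowest p were Ccng1, a cyclin homologue (log2 1.36 ± 0.04), Phlda3, an inhibitor of AKT (2.91 ± 0.10), Psrc1, a spindle protein (2.47 ± 0.10), and Zmat3, an RNA-binding protein (2.01 ± 0.09). The edgeR adjusted p was 1.62e-05 or less for these 4 genes. Bbc3, Pmaip1 and Tnfrsf10b stand in this list and are also known to respond to ATF4 or CHOP, and they were singled out after their values were seen. All 3 rose, so they cannot show how genes with both inputs behaved in general. Ppp1r15a, listed here as also responding to DNA damage, fell. Without Bbc3, Pmaip1 and Tnfrsf10b, 16 of 20 genes of the p53 list rose and 0 fell, with a median log2 change of 0.88. The death gene Bbc3 (PUMA) was at 7.17, 4.72 and 7.90 CPM in WT and 33.7, 31.4 and 39.7 CPM in KO (log2 2.41 ± 0.20, edgeR adjusted p = 0.000104). Pmaip1 (NOXA) rose from 27.3 ± 7.29 to 102 ± 16.9 CPM, and Tnfrsf10b, which encodes a death receptor, from 3.79 ± 0.51 to 11.6 ± 0.79 CPM (edgeR adjusted p = 0.000291 and 0.000126). Cdkn1a, the p53-driven cell cycle inhibitor that ATF4 is also reported to affect, rose by log2 1.65 ± 0.18 (edgeR adjusted p = 0.000384). Of the sestrin family, Sesn1, a p53 target, and Sesn3, a FOXO target, rose as well, by log2 0.67 ± 0.07 and 0.92 ± 0.13 (edgeR adjusted p = 0.000323 and 0.00133).

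Compared per length, the 10 mRNAs spanned a wide range. In WT the order in CPM per kilobase was Atf4 (64.4 ± 8.92), Eif4ebp1 (39.6 ± 3.64), Ddit3 (28.1 ± 1.32), Ppp1r15a (14.6 ± 2.83), Asns (14.4 ± 0.62), Trib3 (9.45 ± 0.50), Vldlr (3.85 ± 0.29), Atf5 (1.58 ± 0.56), Sesn2 (0.63 ± 0.05) and Chac1 (0.39 ± 0.10). Ppp1r15a and Asns were not apart beyond their spread. In KO, Atf4 remained first at 51.6 ± 1.72, with Eif4ebp1 (17.8 ± 0.98) and Ddit3 (17.4 ± 1.02) level within their spread, followed by Ppp1r15a (10.1 ± 0.66), Asns (9.51 ± 0.60) and Trib3 (2.10 ± 0.24). Sesn2 (1.70 ± 0.31) then stood above Atf5 (1.19 ± 0.13), Vldlr (0.58 ± 0.15) and Chac1 (0.31 ± 0.04). Among all tested genes, the WT level per kilobase of Atf4 was above that of 92.7% and that of Chac1 above that of 17.2%.

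Other ATF4 targets were lower more often than higher, with many uncalled. In 4 lists of such genes, 15 of 32 tested genes fell and 1 rose, with a median log2 change of -0.35. Among all tested genes 20.9% were called lower and 21.7% higher. Among 7 genes of serine and one-carbon metabolism 4 fell, led by the mitochondrial folate enzyme gene Aldh1l2, which went from 1.496 ± 0.27 to 0.16 ± 0.03 CPM (log2 -3.17 ± 0.27, edgeR adjusted p = 0.000129). In this list Mthfd1l, another mitochondrial folate enzyme gene, fell by 0.99 on the log2 scale, Psat1 by 0.35 and Psph by 0.31. Mthfd2 was higher in every KO library than in any WT library and was not called (log2 0.16 ± 0.06, edgeR adjusted p = 0.0812). Under upper-quartile scaling, and with the filter at a mean of 1 CPM, 1 gene of the list was called higher. Of 7 genes of proline, cysteine and other amino acid enzymes 5 fell (median -0.75), among them the transaminase genes Gpt2 (log2 -1.39 ± 0.12) and Got1 (-0.75 ± 0.09) and the proline synthesis genes Aldh18a1 (-0.68 ± 0.09) and Pycr1 (-1.69 ± 0.32). Of 10 amino acid transporter genes 3 fell and 7 were not called, beside 20.9% of all tested genes called lower. The 3 that fell were the glutamine carrier gene Slc1a5 (186 ± 14.9 to 115 ± 8.80 CPM), the glycine carrier gene Slc6a9 and the heavy chain gene Slc3a2. Slc1a4, the next by p, had a log2 change of -0.42 (edgeR adjusted p = 0.052).

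In the list of stress and growth signals 4 of 9 tested genes fell and 1, Cdkn1a, rose. For this list and the next, the shares of all tested genes were 20.9% called lower and 21.7% called higher. The secreted hormone gene Stc2 fell, with 8.49 ± 3.16 CPM in WT against 1.30 ± 0.31 CPM in KO (log2 -2.71 ± 0.33, edgeR adjusted p = 0.000624), and the stress cofactor gene Nupr1 by 1.49 on the log2 scale. Of 21 genes of the list of cytosolic aminoacyl-tRNA synthetases, which also holds the tRNA exporter gene Xpot, 7 fell and 1 rose, with small changes and a median of -0.15. The largest by p were Sars (log2 -0.43 ± 0.05), Cars (-0.54 ± 0.10), Mars (-0.29 ± 0.07) and Dars (-0.28 ± 0.07). With spike-in scaling 11 of the 32 ATF4 targets fell and 2 rose, none of the synthetases fell or rose, and the calls of Psph, Psat1, Slc3a2, Sars, Cars, Mars and Dars ended. Those of Psph, Pycr1, Slc6a9 and Dars also ended with the single KO library and with the covariate for Y-linked reads.

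**Figure D4:**
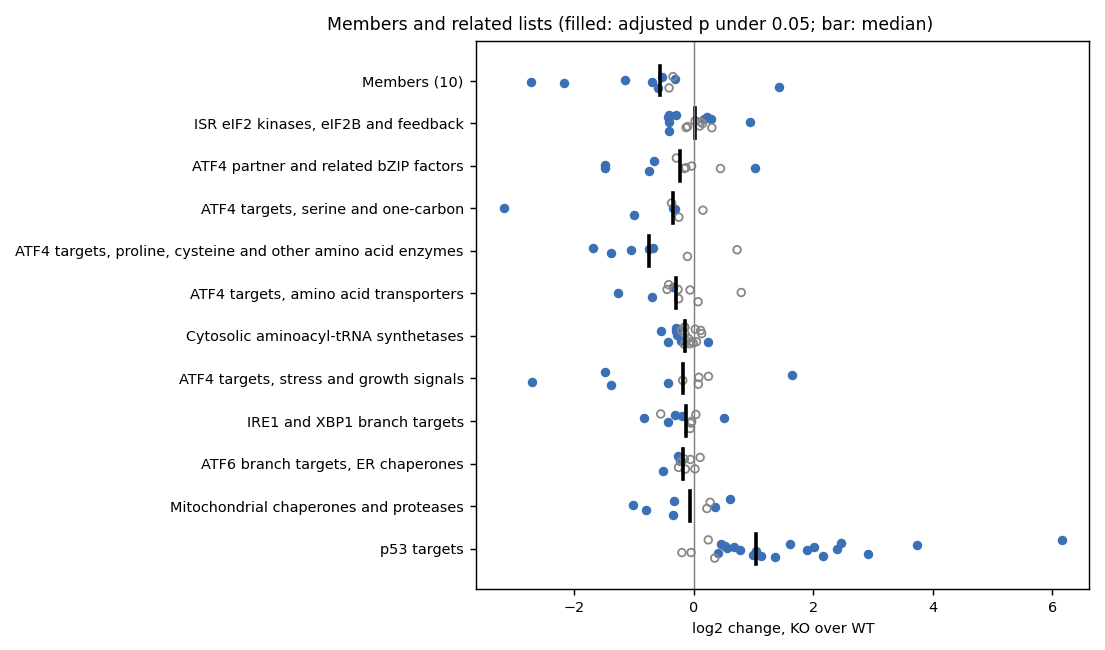
Log2 change of KO over WT for the 10 genes (top row) and for each tested gene of 11 related lists, filled where the edgeR adjusted p was under 0.05, with the median of each list as a bar. The p53 targets lie to the right (median 1.05), most ATF4 target lists to the left, and the regulators of eIF2 on both sides of 0 (median 0.03). The point farthest right is Ccnd1, which was near 0 in WT.

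Upstream of ATF4, mRNAs for the eIF2 kinases, eIF2 and its regulators went in both directions. Of 17 tested genes 4 rose and 6 fell, with a median log2 change of 0.03. Among all tested genes 21.7% were called higher and 20.9% lower. Eif2b5, which encodes the catalytic subunit of the exchange factor eIF2B, fell by 0.42 on the log2 scale (edgeR adjusted p = 0.00221), Ppp1r15b, the constitutive partner of Ppp1r15a, by 0.41 (0.00247) and the eIF2 subunit gene Eif2s2 by 0.30 (0.00368). These 3 calls ended with spike-in scaling, where 1 gene of the list rose and 0 fell. That of Eif2b5 also ended with the covariate for Y-linked reads (edgeR adjusted p = 0.0552) and with the single KO library (0.0669). Eif2ak3, which encodes the kinase PERK, stood at 25.0, 11.6 and 23.9 CPM in WT and at 40.3, 35.03 and 40.8 CPM in KO. Its rise (log2 0.94 ± 0.26, edgeR adjusted p = 0.0219) lost its call, by edgeR adjusted p, without KO replicate 1 (0.07), 2 (0.0503) or 3 (0.0688), with the covariate for Y-linked reads (0.245) and with the single KO library (0.261). The list counts moved with single libraries, and between 0 and 2 genes of the list rose without WT replicate 1, WT replicate 3 or any one KO library.

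Eif2s3x, singled out after its values were seen, encodes the gamma subunit of eIF2 and has a Y-linked copy, Eif2s3y. It stood at 332, 326 and 328 CPM in WT and at 218, 311 and 206 CPM in KO. The 2 lower KO libraries, replicates 1 and 3, were those rich in Y-linked reads, with Eif2s3y at 82.7 and 84.0 CPM against 11.7 CPM in KO replicate 2 and 0 in WT. The log2 change of Eif2s3x was -0.42 (edgeR adjusted p = 0.0483), and the call ended without any one library except KO replicate 2 (edgeR adjusted p from 0.056 to 0.163). It also ended under upper-quartile and spike-in scaling, with the filter at a mean of 1 CPM and with the single KO library (log2 -0.07). The change was 0.00 once the Y-linked level was a covariate (edgeR adjusted p = 0.979).

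Partner factors and paralogs varied. Of 10 tested leucine zipper and related stress factors 4 fell and 1 rose, beside 20.9% of all tested genes called lower and 21.7% higher. Xbp1, the factor of the IRE1 branch, went from 329 to 118 CPM, a log2 change of -1.48 ± 0.06 (edgeR adjusted p = 1.15e-05). Nfe2l2, the factor of the antioxidant response, had a change of -0.74 and Cebpb, a partner of ATF4, one of -0.66 (edgeR adjusted p = 0.000306 and 0.003). The other gene that fell was Nupr1, described above. Jdp2 rose by log2 1.03 ± 0.21 (edgeR adjusted p = 0.00675). The calls of Cebpb and Jdp2 ended with the single KO library and with the covariate for Y-linked reads, and that of Cebpb with spike-in scaling. Atf3, a frequent partner of Ddit3 in stress, was low (2.38 and 3.23 CPM) and not called (log2 0.45 ± 0.45, edgeR adjusted p = 0.461), and Atf6 was not called (-0.155 ± 0.14, edgeR adjusted p = 0.419).

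Among the other tribbles genes, Trib2 had a log2 change of -0.32 ± 0.10 and Trib1 of -0.50 ± 0.16 (edgeR adjusted p = 0.0325 and 0.0434), both smaller than that of Trib3. The call of Trib1 ended without any one library except WT replicate 2, and that of Trib2 when WT replicate 3 or either of KO replicates 1 and 3 was left out. Both calls also ended under upper-quartile and spike-in scaling, with the single KO library and with the covariate, and that of Trib1 with the replicate block (edgeR adjusted p = 0.0771) and without the filter (0.0684). Chac2, the constitutive relative of Chac1, changed by -0.22 ± 0.11 (edgeR adjusted p = 0.165), and Asnsd1 by 0.17 ± 0.10 (edgeR adjusted p = 0.187), neither of them called.

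**Figure D5:**
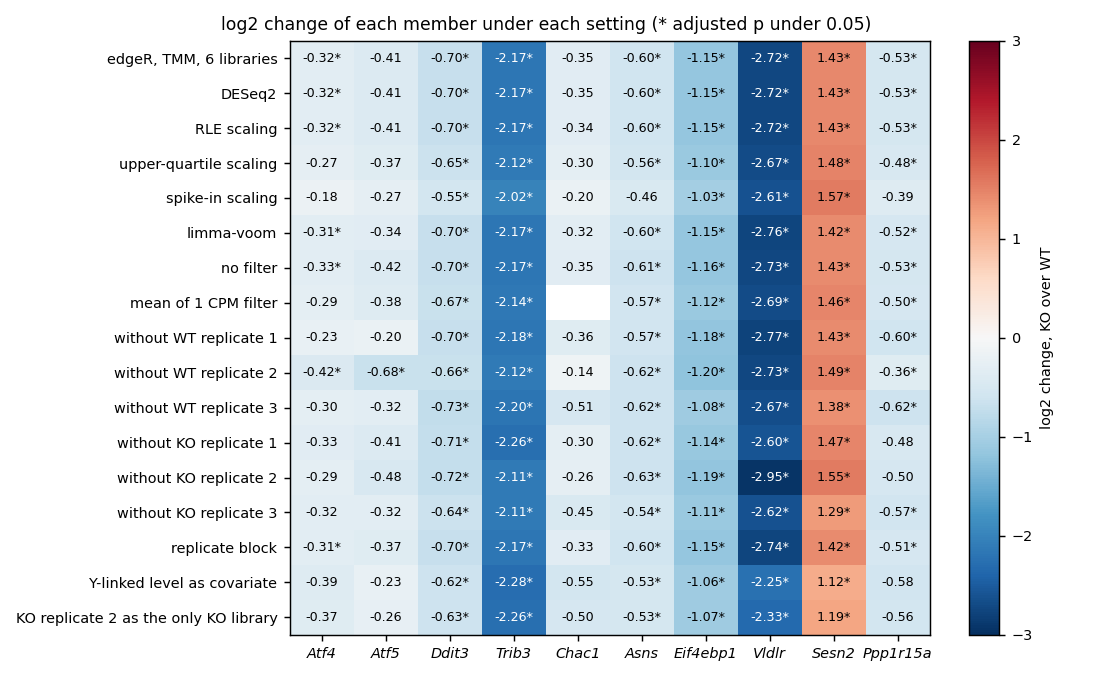
Log2 change of KO over WT of the 10 genes (columns) under the fit with all 6 libraries and each alternative setting (rows), with a star where the adjusted p was under 0.05 and a blank where a gene was not tested. Ddit3, Trib3, Eif4ebp1, Vldlr and Sesn2 carry a star in every row, and Atf4 in 7 of 17.

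The authors' deposited table gave the same direction for all 10 genes and, at an adjusted p under 0.05, called 8 of them. These were the 8 called here. There, in the authors' deposited table, the log2 fold change was -2.69 for Vldlr, -2.14 for Trib3 and 1.39 for Sesn2. In the authors' deposited table Atf4 had a log2 fold change of -0.29, with an adjusted p of 0.0244.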

How the data were processed

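Total RNA of 3 WT and 3 KO cultures was analysed from 1 deposited table. Its raw columns hold counts per gene deposited by the authors, whole numbers in every cell. The authors' normalized columns hold a signal equal to the count divided by 1 factor per sample, given for the 14545 entries they marked above background. A log2 fold change, an adjusted p-value and a length (derivation not given) were also deposited for each gene. Per the submitters' processing notes, STAR, featureCounts, DESeq2 and DESeq were used with GRCm38.p3, with no versions.

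The 92 spike-in entries were set aside. Genes were kept by filterByExpr of edgeR 4.0.16 (minimum count 10, minimum total 15), leaving 16006, and scaled by TMM. Log2 changes and p-values came from the quasi-likelihood test on genotype alone. The Benjamini-Hochberg adjustment ran over every tested gene, and a call needed an adjusted p under 0.05. The SE is the absolute coefficient divided by the square root of F. Positions came from GENCODE M21. All 10 members passed the filter. A count of 0 allows up to 3 counts, 0.0697 to 0.0835 CPM, for counting error only. The fit was checked on simulated data in which far fewer genes changed than were called here. Its error rates with so many changed genes were not checked. Alternatives were DESeq2 1.42.0, limma-voom (limma 3.58.1), 3 scalings, 2 filters, each library left out, a replicate block, a Y-linked covariate and a single KO library.

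The members and lists were chosen with earlier results of these data known. Named by rule were the members, Prmt5, up to 4 genes per list with the lowest p, and all tested paralogs but 1, which is not reported here. Bbc3, Pmaip1, Tnfrsf10b, Ccnd1, Mthfd2, Clpx, Dnaja3, Hspa9, Clpp, Eif2s3x and its copy Eif2s3y were named outside the rule, after their values were seen. The same holds for the cell type markers named singly. Same-numbered WT and KO libraries did not deviate together (correlations of deviations -0.02, 0.01 and 0.08 for replicates 1, 2 and 3).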

Additional observations from a re-analysis of the deposited data

How the results depend on the processing

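Under spike-in scaling 4448 genes were called, with the Y-linked covariate 3460 and with KO replicate 2 alone in its group 2844, against 6809 otherwise, and the members that fell numbered 4 under spike-in scaling. In the other alternatives 5 to 8 members fell and 1 rose, and no member changed direction in any alternative. The samples share only a number, and the fit with that number as a replicate block called 6190 genes, with 7 members lower and 1 higher. Eif4ebp3 changed sign without WT replicate 3 (-0.0049) or KO replicate 3 (-0.14, with 0.28 as the highest value without 1 library), with the Y-linked covariate (-0.36) and with the single KO library (-0.26). Hspa5 turned to 0.0062 under spike-in scaling, and Eif2s3x to 0.0032 with the Y-linked covariate. The cause of these changes was not tested. Of 957 values for 60 list genes, 866 kept direction and call, 81 lost the call and 4 gained it. Chac1 was not tested with the filter at a mean of 1 CPM. Depth limits Chac1 (17 to 33 reads per library) and Atf5 (70 to 131).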

Other observations

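The other branches of the unfolded protein response were mixed. Of 10 targets of IRE1 and XBP1 4 fell and 1 rose, with a median log2 change of -0.12. Among all tested genes 20.9% were called lower and 21.7% higher. Sdf2l1, an ER chaperone partner, fell by 0.83 on the log2 scale (edgeR adjusted p = 0.000105), Sec61b, a subunit of the translocon, by 0.31 (0.00253) and the disulfide isomerase gene Pdia6 by 0.43 (0.0426). Edem1, which directs misfolded proteins to degradation, rose by log2 0.51 ± 0.08 (edgeR adjusted p = 0.00179). Of 10 ATF6 targets and ER chaperones 0 rose and 3 fell, namely Pdia4 (log2 -0.51), Canx (-0.22) and Manf (-0.26), beside 20.9% of all tested genes called lower. Hspa5, the main ER chaperone BiP, went from 956 to 869 CPM and was not called (edgeR adjusted p = 0.0533). The falls of Sec61b, Pdia6, Pdia4, Canx and Manf lost their calls under spike-in scaling. Those of Sec61b, Pdia6 and Manf also ended with the covariate for Y-linked reads, and those of Sec61b, Pdia6, Manf and Canx with the single KO library. That of Pdia6 ended too without any one KO library, with the replicate block (edgeR adjusted p = 0.0973), under upper-quartile scaling and with the filter at a mean of 1 CPM, and that of Manf without WT replicate 1, WT replicate 3, KO replicate 2 or KO replicate 3.

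The 8 genes of the list of mitochondrial chaperones and proteases did not move together, as 2 rose and 4 fell. Among all tested genes 21.7% were called higher and 20.9% lower. The chaperonin genes Hspd1 and Hspe1 rose by log2 0.36 ± 0.06 and 0.60 ± 0.05 (edgeR adjusted p = 0.00311 and 8.84e-05). The matrix protease gene Lonp1 fell by 0.80 on the log2 scale and the inner membrane protease gene Afg3l2 by 1.02 (edgeR adjusted p = 4.74e-05 and 0.00271). Clpx and the chaperone gene Dnaja3 fell too, by 0.33 and 0.35 (edgeR adjusted p = 0.00398 and 0.00548). The chaperone gene Hspa9 and the protease gene Clpp were not called. Under spike-in scaling 2 genes of the list rose and 2 fell. The call of Hspd1 ended with the single KO library and with the covariate for Y-linked reads.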
